A study of Mus musculus with 12 samples.

Results

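The genes described here are Ddit4 and 9 genes known to respond to glucocorticoids or to carry their signal: Nr3c1, Fkbp5, Tsc22d3, Sgk1, Zbtb16, Klf9, Cdkn1a, Mt1 and Mt2. They were taken by symbol, and all 10 were found among the 52636 gene identifiers of the count table. RNA was sequenced from joints of 12 mice, 4 per group and 1 animal per library. Naive mice had no arthritis and received anti-gp120, the negative control antibody. In the other two groups arthritis was induced by K/BxN serum transfer, in which serum from arthritic K/BxN mice carries joint-directed autoantibodies into recipients, and tissue was taken at day 7. One of these groups received anti-gp120 (control-antibody joints) and the other 6F2, an agonistic antibody to SIRPa, an inhibitory receptor of myeloid cells (anti-SIRPa joints). All 3 groups thus carried an injected antibody. The sources used here do not give the animals' strain, sex or age, and the labels name no glucocorticoid treatment. Ddit4 was chosen by its stable difference between control-antibody and naive joints, so values of the 10 genes in that contrast, and the number of them called there, are given as a description with no p.

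Glucocorticoids act through the receptor encoded by Nr3c1, which waits in the cytoplasm with heat shock proteins and FKBP-type co-chaperones, moves to the nucleus once bound by hormone, and raises or lowers transcription. Its induced genes include a feedback inhibitor of the receptor (Fkbp5), an anti-inflammatory leucine zipper protein (Tsc22d3, or GILZ), a kinase (Sgk1) and an inhibitor of the growth-promoting kinase complex mTORC1 (Ddit4, or REDD1). None of these genes answers to the hormone alone: Ddit4 is also induced by low oxygen and stress, Cdkn1a by p53, and the metallothioneins Mt1 and Mt2 by zinc and by inflammation.

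Library totals ran from 6893969 to 17597920 counts, and control mouse 2 had the lowest. Markers of cartilage, bone and connective tissue fibroblasts were detected in all 3 groups and the summed level of 14 skeletal muscle markers was 127000 to 329000 CPM (read counts scaled to library size and by the TMM factors of edgeR), so the joints also held muscle RNA. Muscle markers summed to 189000 to 329000 CPM in naive joints, 127000 to 248000 in control-antibody joints and 129000 to 249000 in anti-SIRPa joints. Epidermis markers ranged from 7.53 to 18900 CPM over the 12 libraries. Among the control-antibody libraries, mouse 1 stood apart: its 9 fibroblast markers summed to 12800 CPM against 33200 to 47300 in the other 3 and its macrophage markers to 446 CPM against 882 to 926. Libraries of control mice 2 and 4 held 528 and 226 CPM of smell and taste receptor reads, against 10.1 to 29.3 CPM in the other 10. In bulk tissue, fewer cells of a type and less RNA per cell cannot be told apart.

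Promoter sequence was at hand for 8 of the 10 genes, in 16 windows that run from 250 bases before to 50 bases after a start site (RefSeq, GRCm38.p6), but not for Zbtb16 and Nr3c1. The windows of the genes that differed most between groups are shown, without the bases after the start, 5′ to 3′ on the strand of the gene. In Sgk1 (chr10:21993640-21993889, plus strand, the fifth of 6 windows) capitals mark a full glucocorticoid response element, AGAACA and TGTTCT with 3 bases between them. In Ddit4 (chr10:59951771-59952020, minus strand) capitals mark ACGTG, the core bound by hypoxia-inducible factors. In Mt1 (chr8:94178839-94179088, plus strand) and Mt2 (chr8:94172368-94172617, plus strand) they mark the metal response core TGCACNC or TGCGCNC, read on either strand.
Sgk1: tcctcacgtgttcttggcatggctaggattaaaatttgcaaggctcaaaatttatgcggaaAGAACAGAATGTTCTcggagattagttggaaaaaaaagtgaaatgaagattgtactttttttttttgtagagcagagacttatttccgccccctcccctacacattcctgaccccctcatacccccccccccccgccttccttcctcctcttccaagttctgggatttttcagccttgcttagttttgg
Ddit4: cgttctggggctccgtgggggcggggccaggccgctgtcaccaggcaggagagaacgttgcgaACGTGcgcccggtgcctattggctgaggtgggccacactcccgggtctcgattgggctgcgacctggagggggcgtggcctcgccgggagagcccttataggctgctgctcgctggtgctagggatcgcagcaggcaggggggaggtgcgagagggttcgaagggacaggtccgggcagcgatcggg
Mt1: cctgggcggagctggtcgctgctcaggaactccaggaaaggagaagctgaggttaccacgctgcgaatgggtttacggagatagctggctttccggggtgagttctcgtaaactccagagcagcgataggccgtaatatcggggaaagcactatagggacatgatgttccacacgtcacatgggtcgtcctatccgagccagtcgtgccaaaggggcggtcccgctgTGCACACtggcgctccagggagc
Mt2: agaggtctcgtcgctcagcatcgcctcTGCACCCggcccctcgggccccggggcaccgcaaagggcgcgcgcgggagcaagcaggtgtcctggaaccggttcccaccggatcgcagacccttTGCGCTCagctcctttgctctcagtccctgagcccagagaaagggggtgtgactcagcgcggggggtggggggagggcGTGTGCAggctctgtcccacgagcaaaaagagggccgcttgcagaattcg
The full element was found in 3 of 32851 windows over all genes (0.00913%), and the window of Sgk1 is one of these 3, with the element starting at -189. The half-site AGAACA alone, searched on both strands, was in 19% of all windows. It also lay in 2 further windows of Sgk1 and in 1 window of Tsc22d3, at -185, and was not found in the windows of the other 6 genes. The metal core was in 25.7% of all windows, with 4 matches in Mt2 (-223, -128, -50 and 5) and 3 in Mt1 (-23, 3 and 21). It had 1 match in another window of Sgk1, at 12, and 1 in Ddit4 at -184, which overlaps the ACGTG match at -187. ACGTG was in 19.6% of all windows and is not particular to Ddit4. It also lay in Fkbp5 (-169 and -168), Klf9 (-44), Mt1 (-79) and the shown window of Sgk1 (-246 and -245). In the sequences of Sgk1 and Mt1 above it stands in lower case. No match was found in Tsc22d3, Cdkn1a and Mt2. These matches describe letters only.

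Across the 10 genes, 2 patterns stood out. Ddit4, Sgk1, Mt1 and Mt2 had mean levels 2.75-fold to 3.29-fold above naive in control-antibody joints, the highest ratios of the 10, and lower mean levels in anti-SIRPa joints. Nr3c1, the receptor itself, went the other way. Fkbp5 and Tsc22d3 were in the first pattern with smaller ratios, and their groups overlapped. Zbtb16, Klf9 and Cdkn1a overlapped between all groups.

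**Figure D1:**
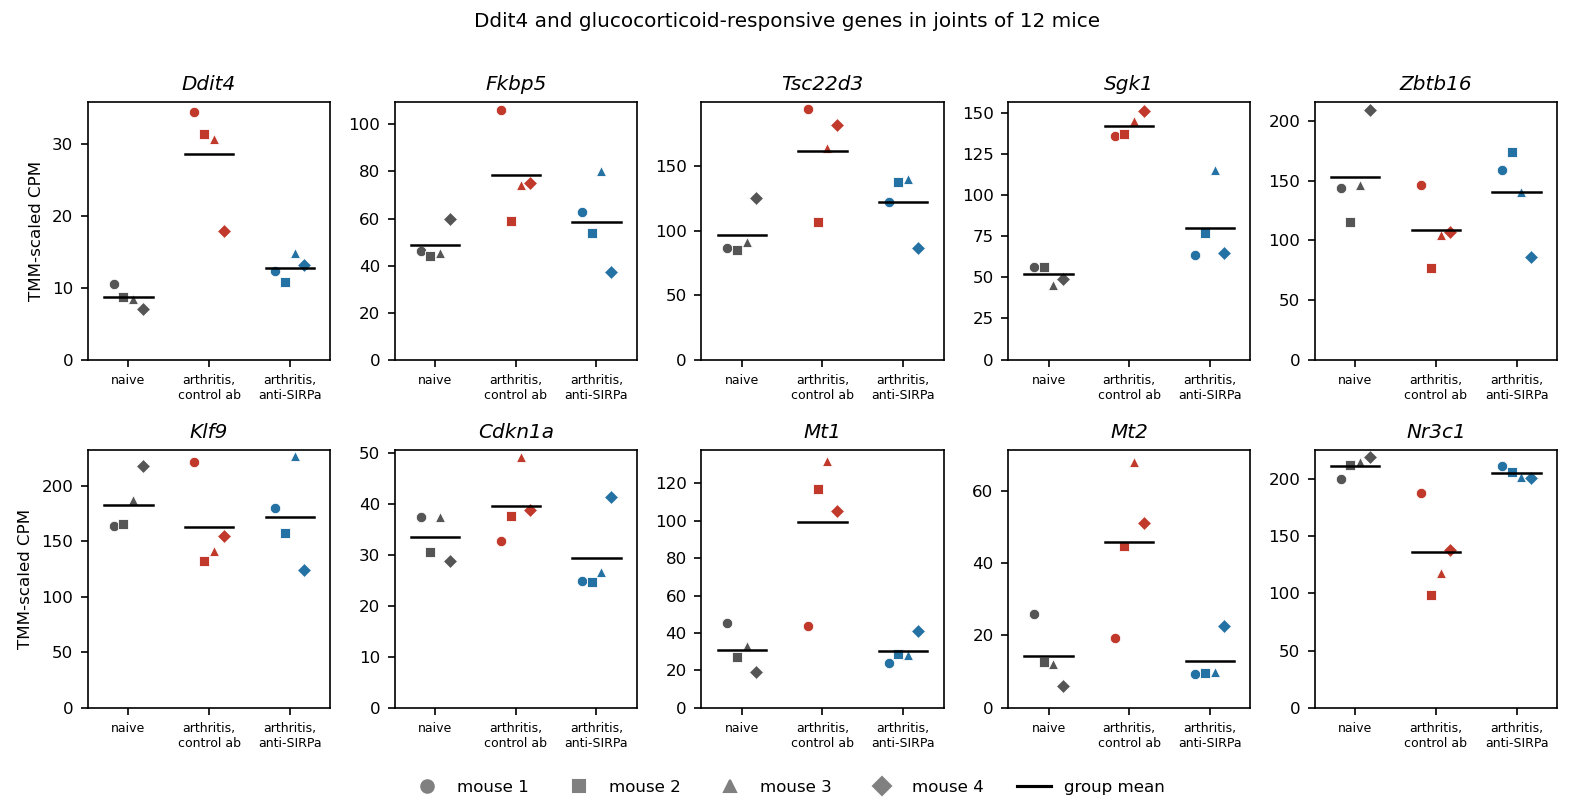
TMM-scaled CPM (y axis, linear, from 0) of the 10 genes in each of 12 joints, by group (x axis). Marker shapes give the mouse number within a group, which is not known to link mice across groups. Black lines are group means. Ddit4 and Sgk1 in all 4 control-antibody joints lay above every other joint, whereas Mt1 and Mt2 of control mouse 1 lay among the naive values.

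Ddit4 (ENSMUSG00000020108, chr10:59949669-59951834, minus strand, GRCm38) encodes a stress-induced inhibitor of mTORC1. Its level was 10.6, 8.71, 8.51 and 7.05 CPM in naive mice 1 to 4, 34.5, 31.4, 30.8 and 17.9 CPM in control-antibody mice 1 to 4, and 12.4, 10.8, 14.9 and 13.2 CPM in anti-SIRPa mice 1 to 4. Every control-antibody joint was above every joint of the other groups, with mouse 4 the lowest of them. These levels rest on 92 to 417 counts per library. The means were 8.71 ± 1.45, 28.7 ± 7.34 and 12.8 ± 1.72 CPM (SD, n = 4 each), so control-antibody joints were 3.29-fold above naive (log2 difference 1.71 ± 0.20, SE), the contrast that chose the gene. Ddit4 fell with anti-SIRPa against control antibody, to 0.448 of the mean (log2 -1.16 ± 0.20, adjusted p = 0.0193 by edgeR's quasi-likelihood test over 16674 genes, lower in 4 of 4 mice). That comparison uses the same control-antibody libraries as the contrast that chose Ddit4. The call was lost without control mouse 2 (-1.11, adjusted p = 0.0518), control mouse 3 (-1.11, 0.0662), anti-SIRPa mouse 1 (-1.13, 0.0837) or anti-SIRPa mouse 2 (-1.08, 0.0901), while the difference stayed between -1.33 and -1.04 with any 1 of the 12 mice left out. Anti-SIRPa joints lay just above naive joints, 10.8 CPM for the lowest against 10.6 for the highest, but this difference did not pass the test (0.56 ± 0.20, adjusted p = 1).

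Nr3c1 encodes the glucocorticoid receptor. Its level was 200, 212, 215 and 219 CPM in naive mice 1 to 4 and 211, 206, 202 and 201 CPM in anti-SIRPa mice 1 to 4. In control-antibody mice 1 to 4 it was 188, 98.5, 118 and 138 CPM, below every joint of the other groups, with mouse 1 close to them. The naive and anti-SIRPa groups were tight, with SDs of 8.22 and 4.49 CPM around 211 and 205, against 38.7 around 136 in control-antibody joints. The log2 difference was -0.64 ± 0.16 for control antibody against naive. Against control antibody, anti-SIRPa joints were higher in 4 of 4 mice by 0.59 ± 0.16, which did not pass the threshold of 0.05 (edgeR adjusted p = 0.0577). Without control mouse 1 it did, at 0.80 with an adjusted p of 3.78e-04. This was the 1 fit of the 12 without 1 mouse that called Nr3c1. In it 23% of all genes were called, against 3.29% with all mice. With the muscle marker level as a covariate the differences were -0.34 and 0.36.

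Fkbp5 encodes the co-chaperone that lowers the receptor's affinity for hormone. It measured 46, 44, 45.5 and 59.9 CPM in naive mice 1 to 4, 106, 59, 74.3 and 75 CPM in control-antibody mice and 62.9, 53.7, 80.1 and 37.1 CPM in anti-SIRPa mice. All 3 groups overlapped. Control mouse 1 was the highest of the 12 joints and anti-SIRPa mouse 4 the lowest. The log2 difference was 0.69 ± 0.22 for control antibody against naive and 0.50 without control mouse 1. For anti-SIRPa against control antibody it was -0.43 ± 0.22 and did not pass the test (edgeR adjusted p = 0.249).

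Tsc22d3 encodes GILZ, which binds and restrains NF-kB and AP-1. Naive mice 1 to 4 had 86.4, 85.3, 91.1 and 125 CPM, control-antibody mice 194, 107, 164 and 182 CPM, and anti-SIRPa mice 122, 138, 140 and 86.6 CPM. The groups overlapped, since control mouse 2 lay below naive mouse 4. The log2 difference was 0.74 ± 0.20 for control antibody against naive, and -0.41 ± 0.20 for anti-SIRPa against control antibody (edgeR adjusted p = 0.225).

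Sgk1 (ENSMUSG00000019970, chr10:21882184-21999903, plus strand) encodes a kinase that regulates ion channels and transporters and acts downstream of PI3 kinase. It measured 56, 56.4, 45.6 and 49.2 CPM in naive mice 1 to 4, 136, 137, 145 and 151 CPM in control-antibody mice, and 63.5, 76.6, 115 and 64.8 CPM in anti-SIRPa mice. No 2 groups overlapped. The control-antibody joints were close together (SD 6.98 around 142 CPM), and control mouse 1 did not stand apart here. Anti-SIRPa mouse 3 was the highest of its group, as it was for Ddit4, Fkbp5 and Tsc22d3. The log2 difference was 1.46 ± 0.17 for control antibody against naive (2.75-fold). Sgk1 fell with anti-SIRPa against control antibody by 0.83 ± 0.17 on the log2 scale, to 0.561 of the mean (edgeR adjusted p = 0.0289, lower in 4 of 4 mice). Leaving out naive mouse 2, control mouse 2, 3 or 4, or anti-SIRPa mouse 1 or 2 ended this call, with adjusted p from 0.0504 to 0.0987, and the difference stayed between -1.05 and -0.70. Anti-SIRPa against naive was 0.62 ± 0.17 (adjusted p = 1).

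**Figure D2:**
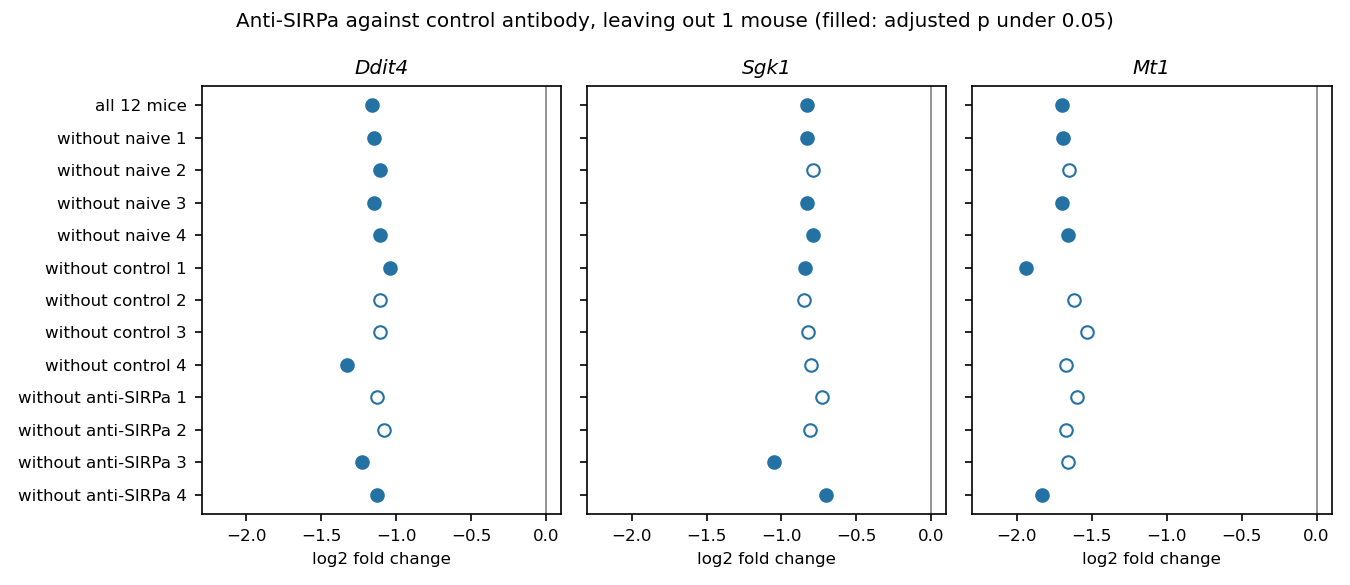
Log2 fold change of anti-SIRPa against control antibody (x axis) for Ddit4, Sgk1 and Mt1 with all 12 mice and with each mouse left out (y axis); filled points have an edgeR adjusted p under 0.05. All points lie below 0, and the points without anti-SIRPa mouse 1 or 2 or control mouse 2 or 3 are open for all 3 genes.

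Zbtb16 and Klf9 encode zinc finger transcription factors, and Zbtb16 is among the genes most strongly induced by glucocorticoids in many cells. In naive mice 1 to 4 Zbtb16 measured 144, 115, 146 and 209 CPM, in control-antibody mice 146, 76.6, 104 and 107 CPM, and in anti-SIRPa mice 159, 174, 140 and 86.3 CPM. Klf9 measured 164, 166, 187 and 218 CPM, 222, 132, 141 and 155 CPM, and 180, 158, 227 and 124 CPM in the same order. The groups overlapped for both genes. Zbtb16 differed by -0.50 ± 0.24 (log2) between control antibody and naive, and by 0.36 ± 0.24 between anti-SIRPa and control antibody (edgeR adjusted p = 0.378). For Klf9 these differences were -0.17 ± 0.20 and 0.08 ± 0.20 (adjusted p = 0.832).

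Cdkn1a encodes the cell cycle inhibitor p21. It measured 37.4, 30.5, 37.4 and 28.7 CPM in naive mice 1 to 4, 32.7, 37.6, 49.2 and 38.8 CPM in control-antibody mice and 24.8, 24.7, 26.6 and 41.3 CPM in anti-SIRPa mice. Anti-SIRPa mice 1, 2 and 3 lay below all other joints and mouse 4 lay above most of them. The difference was 0.24 ± 0.18 (log2) for control antibody against naive and -0.43 ± 0.18 for anti-SIRPa against control antibody (edgeR adjusted p = 0.166).

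Mt1 (ENSMUSG00000031765, chr8:94179082-94180327, plus strand) and its neighbour Mt2 (ENSMUSG00000031762, chr8:94172664-94173568, plus strand) encode metallothioneins, small proteins that bind zinc and copper. Mt1 measured 45.1, 27.3, 33 and 18.9 CPM in naive mice 1 to 4, 43.8, 117, 132 and 105 CPM in control-antibody mice and 24.1, 28.8, 28.2 and 40.9 CPM in anti-SIRPa mice. Mt2 measured 25.9, 12.7, 12 and 6.13 CPM, 19.3, 44.8, 68.1 and 51 CPM, and 9.4, 9.59, 10 and 22.6 CPM in the same order. For both genes control mice 2, 3 and 4 were above all other joints, and control mouse 1 was below naive mouse 1. The log2 difference of control antibody against naive was 1.68 ± 0.34 for Mt1 and 1.69 ± 0.50 for Mt2, and without control mouse 1 it was 1.91 and 1.93. Mt1 fell with anti-SIRPa against control antibody by 1.70 ± 0.34 on the log2 scale (edgeR adjusted p = 0.0328), and these 2 groups did not overlap. The Mt1 call was lost without naive mouse 2, control mouse 2, 3 or 4, or anti-SIRPa mouse 1, 2 or 3, with adjusted p from 0.0518 to 0.105 and differences from -1.94 to -1.53 over the 12 mice left out. Mt2 differed by -1.82 ± 0.50 and did not pass the test (adjusted p = 0.067), but did without control mouse 1 (-2.07, adjusted p = 0.0157). In that fit 23% of all genes were called. Mt2 passed in 2 of the 12 fits without 1 mouse. Anti-SIRPa and naive joints differed by less than their spread, 30.5 ± 7.25 against 31.1 ± 11 CPM for Mt1 and 12.9 ± 6.49 against 14.2 ± 8.33 CPM for Mt2. The antisense gene Gm45774, which overlaps Mt2, had 70 counts in all libraries against 3888 for Mt2.

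**Figure D3:**
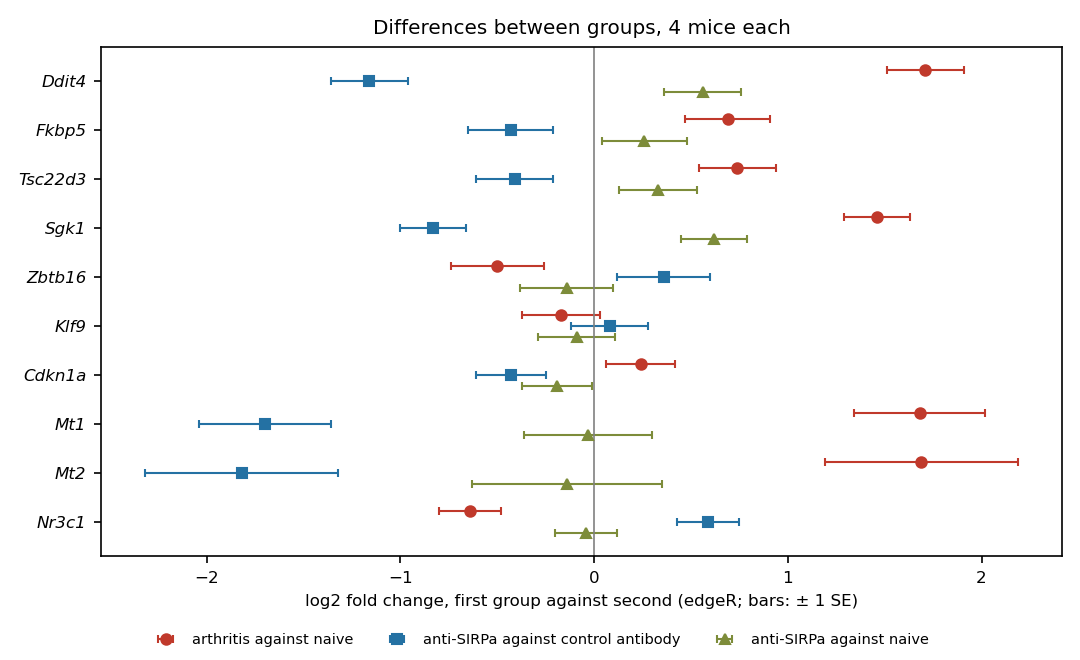
Log2 fold change (x axis) of the 10 genes (y axis) in the 3 comparisons between groups of 4 mice, by edgeR; bars are ± 1 SE. Ddit4, Sgk1, Mt1 and Mt2 lie furthest from 0 for arthritis against naive, at 1.46 to 1.71, and all anti-SIRPa against naive values lie between -0.19 and 0.62.

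Set against all genes, control antibody against naive called 1721 of 16674 genes (10.3%; 5.87% higher and 4.45% lower), and the groups did not overlap for 12.5%. Of the 10 genes, 5 were called, Ddit4, Tsc22d3, Sgk1 and Mt1 higher and Nr3c1 lower, and 3 did not overlap. The genes were selected on this contrast, so nothing is read from these counts. Anti-SIRPa against control antibody called 3.29% of genes, 1.59% higher and 1.70% lower. Of the 10 genes 3 were called, Ddit4, Sgk1 and Mt1, and all 3 fell. Groups did not overlap for 10% of all genes and for 4 of the 10, the same 3 and Nr3c1, which was higher. The median log2 difference was -0.43 over the 10 genes and -0.03 over all genes. Anti-SIRPa against naive called 0 genes (0%) by edgeR, and none of the 10. At an unadjusted p under 0.05 it had 675 genes, DESeq2 called 20 and limma-voom 0. The groups did not overlap for 4.89% of all genes and for 2 of the 10, Ddit4 and Sgk1, both higher than naive. The 2 anti-SIRPa comparisons share their control-antibody and naive libraries with the contrast that chose the genes.

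Per kilobase of exon, the order of the mean levels differed between groups. Exon length joins the exons of all annotated transcripts, and for Mt1 these 1246 bases are the whole gene span. The order between genes thus depends on the annotated transcripts, which the SDs do not cover. In naive joints Klf9 was highest at 38.1 ± 5.22 CPM per kb, followed by Zbtb16 (29.1 ± 7.46), Nr3c1 (27.5 ± 1.07), Mt1 (25 ± 8.82), Mt2 (24.1 ± 14.2) and Tsc22d3 (22.3 ± 4.3), and neighbours in this order differed by less than the sum of their SDs. Sgk1 (10.6 ± 1.08) and Cdkn1a (9.43 ± 1.28) formed a lower pair, and Fkbp5 (5.16 ± 0.783) and Ddit4 (4.97 ± 0.828) the lowest. In control-antibody joints Mt1 (79.8 ± 31.1) and Mt2 (77.9 ± 34.5) were at the top, then Tsc22d3 (37.3 ± 8.9), Klf9 (33.8 ± 8.49) and Sgk1 (29 ± 1.42). Below them were Zbtb16 (20.6 ± 5.43), Nr3c1 (17.7 ± 5.03), Ddit4 (16.3 ± 4.18), Cdkn1a (11.1 ± 1.95) and Fkbp5 (8.3 ± 2.08). Here the step from Sgk1 to Zbtb16 was the one between neighbours that exceeded the sum of their SDs. In anti-SIRPa joints Klf9 (35.8 ± 8.88) was again highest, and Ddit4 (7.32 ± 0.978) and Fkbp5 (6.17 ± 1.89) were lowest.

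The muscle marker level of a joint moved with several of the genes. In control mice 2, 3 and 4 the mean log2 CPM of the 14 muscle markers was 11.41, 11.67 and 12.18, in control mouse 1 it was 12.72, and in naive joints it ranged from 12.47 to 13.04. Anti-SIRPa mouse 4, at 12.12, had less than the other 3 of its group, at 12.63 to 12.71. After group means were subtracted, the correlation with this level over the 12 joints was 0.87 for Tsc22d3 and Nr3c1, 0.85 for Klf9, 0.84 for Zbtb16 and 0.82 for Fkbp5. It was -0.87 for Mt1, -0.79 for Mt2 and -0.69 for Cdkn1a, but -0.21 for Ddit4 and 0.13 for Sgk1. These are descriptions with no test, over values that share a library and its scaling.

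**Figure D4:**
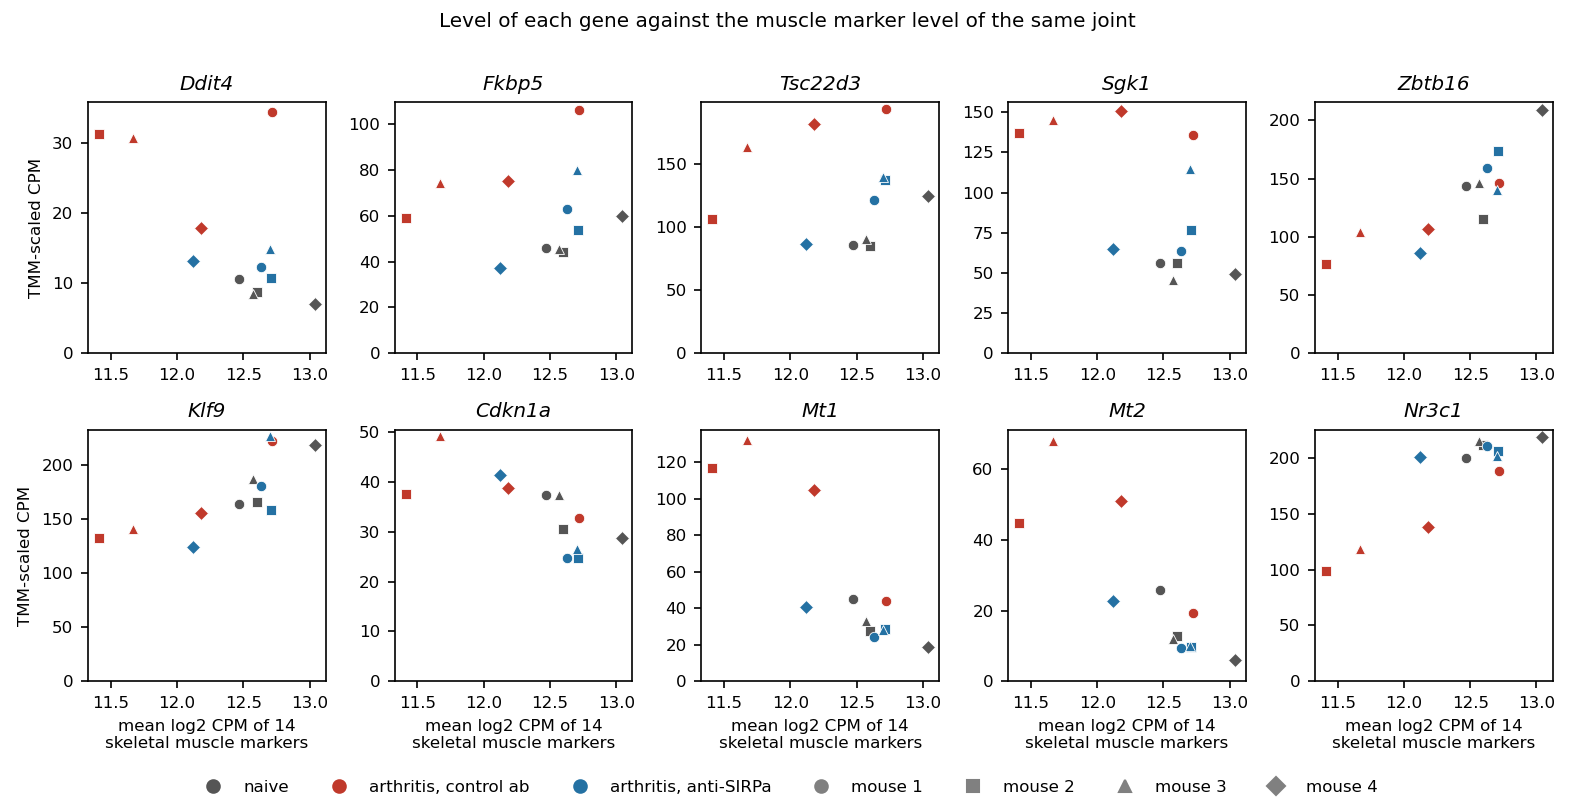
TMM-scaled CPM of each gene (y axis, linear, from 0) against the mean log2 CPM of 14 skeletal muscle markers in the same joint (x axis), with groups by colour and mouse numbers by shape. Ddit4 and Sgk1 of control mouse 1, at a muscle level of 12.72, lie with the other control-antibody joints, whereas Mt1 and Mt2 of that mouse lie with the naive joints.

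With the muscle marker level as a covariate, control antibody against naive gave 1.64 for Ddit4 and 1.52 for Sgk1 on the log2 scale, near the values without it. Fkbp5 (1.16) and Tsc22d3 (1.21) were then further from naive, and Mt1 (0.83) and Mt2 (0.68) nearer. Klf9 was at 0.24, Zbtb16 at 0.05 and Cdkn1a at -0.09. For anti-SIRPa against control antibody the same fit gave -1.10 for Ddit4 (edgeR adjusted p = 0.0478), -0.83 for Fkbp5 (0.0441) and -0.80 for Tsc22d3 (0.0306). All 3 passed the threshold there, whereas Sgk1 (-0.89, 0.0658) and Mt1 (-0.99, 0.06) did not. For Fkbp5 and Tsc22d3 this was the 1 fit of 25 alternatives that called them, and 0 of the 12 fits without 1 mouse did. The muscle marker level itself differed between groups, so the covariate can take up part of a group difference. Zbtb16 (-0.10, 0.879) and Klf9 (-0.26, 0.436) changed sign in that fit and did not pass.

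Other genes induced by glucocorticoids also differed between groups. This list and those below were chosen with earlier results of these data known, so their counts and medians are descriptions. Of 28 tested, 9 rose and 0 fell in control-antibody joints against naive, with a median log2 difference of 0.33 against 0.03 over all genes. Over all genes 5.87% were called higher and 4.45% lower. In the same comparison markers of other cell types rose: 7 of 9 of macrophages (summed level 436 to 468 CPM in naive and 446 to 926 in control-antibody joints), 5 of 9 of fibroblasts (12300 to 19600 and 12800 to 47300 CPM) and 3 of 6 tested of neutrophils (3.23 to 10 and 12.2 to 47 CPM). Their part in these results was not tested. Cebpd, a transcription factor of the acute phase response, rose from 29.1 ± 4.76 to 75.2 ± 10.1 CPM (log2 1.37 ± 0.21, edgeR adjusted p = 0.00535). Lcn2, a secreted iron-siderophore binding protein, rose from 0.519 ± 0.162 to 8.89 ± 6.04 CPM (4.07 ± 0.66, 0.00753), Nfkbia, the NF-kB inhibitor, from 39.9 ± 2.62 to 80.2 ± 21.3 (1.01 ± 0.18, 0.00999), and Errfi1, an inhibitor of EGF receptor signalling, from 77.6 ± 8.92 to 142 ± 34.2 (0.87 ± 0.16, 0.0103). Many of these genes are also induced by NF-kB or inflammatory cytokines. Against control antibody, anti-SIRPa joints had 5 of the 28 lower and 1 higher (1.70% and 1.59% over all genes), with a median of -0.33. There 2 of 9 fibroblast markers, 1 of 6 neutrophil markers and 0 of 9 macrophage markers fell by edgeR, with medians of -1.07, -1.83 and -0.56. Nfkbia fell by 0.88 ± 0.18 on the log2 scale (adjusted p = 0.0314) and Cebpd by 0.95 ± 0.20 (0.0335). Angptl4, a lipase inhibitor, fell by 3.26 ± 0.69 (0.0383) and Crispld2, a secreted protein of stromal cells, by 1.11 ± 0.27 (0.045). Dusp1, the MAP kinase phosphatase, was the 1 gene that rose, from 48.8 ± 10.9 to 79.4 ± 13 CPM (0.70 ± 0.18, adjusted p = 0.0472), and is named after its values were seen. It kept the call without naive mouse 4 or control mouse 1, and lost it without any other 1 mouse (0.61 to 0.79, adjusted p from 0.0565 to 0.14). Control mouse 1 had 8.35 CPM of Angptl4 against 43.6 to 110 in the other 3.

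Of 18 genes of the receptor machinery (chaperones, co-activators, co-repressors and enzymes that activate or inactivate the hormone), 0 were called by edgeR in any of the 3 comparisons. At an unadjusted p under 0.05 there were 6 against naive and 5 for anti-SIRPa against control antibody, and DESeq2 called 3 in each. The lowest p in both comparisons with control-antibody joints was that of Nr3c2, the mineralocorticoid receptor, at 42.2 ± 5.47 CPM in naive, 26.9 ± 8.42 in control-antibody and 43.5 ± 8.15 in anti-SIRPa joints. Its differences were -0.65 ± 0.20 (adjusted p = 0.0573) and 0.69 ± 0.20 (0.069).

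Among 14 tested inflammatory genes that glucocorticoids are known to repress, 12 rose and 0 fell in control-antibody against naive joints. Their median log2 difference was 3.06 against 0.03 over all genes, of which 5.87% were called higher. The list held 18 genes, and the filter on low counts, set by group, removed the rest. Il1b and Cxcl1, low in naive and anti-SIRPa joints, could pass this filter only through control-antibody joints. Such genes could then only be higher there. Nothing is therefore read from the counts and medians of this list, or from the adjusted p of Il1b and Cxcl1, here or with anti-SIRPa. The median of the neutrophil markers was 2.96 over the 6 of 8 that passed the same filter. That of the fibroblast markers was 1.28 and that of the macrophage markers 1.01. Ccl7, a monocyte chemokine, rose from 0.467 ± 0.176 to 16.2 ± 11.1 CPM (edgeR adjusted p = 0.00503), the neutrophil chemokine Cxcl1 from 0.268 ± 0.143 to 8.78 ± 6.09 CPM (0.00602) and Ccl2 from 1.14 ± 0.176 to 9.81 ± 6.22 CPM (0.0062). Il1b had 1 count in the 4 naive libraries together and 422 in the 4 control-antibody libraries. With anti-SIRPa 7 of the 14 fell and 0 rose (1.70% lower over all genes), with a median of -2.71. Mmp3, a matrix-degrading protease of synovial fibroblasts, fell from 97.4 ± 74.2 to 3.28 ± 1.3 CPM (log2 -4.89 ± 0.76, adjusted p = 0.0239), and Il1b from 8.98 ± 7.45 to 0.393 ± 0.386 CPM (0.0338). Ccl7 fell to 2.26 ± 1.13 CPM (0.0319) and Cxcl1 to 1.18 ± 0.735 CPM (0.0375). None of these 4 passed with the muscle marker level as a covariate: the log2 difference of Mmp3 was then -3.21 (adjusted p = 0.0581), of Il1b -2.83 (0.249), of Ccl7 -1.73 (0.26) and of Cxcl1 -1.61 (0.254). In control mouse 1 these genes were the lowest of its group, with 1.08 CPM of Il1b against 6.14 to 18.7 and 10.3 CPM of Mmp3 against 70.8 to 184. That library held the highest Ddit4, Fkbp5 and Tsc22d3 levels of all 12, and the highest Klf9 and Zbtb16 levels of its group. Its muscle marker level was also the highest of its group, at 12.72. Some other glucocorticoid-induced genes were at their lowest of the group in it. Errfi1 measured 92.8 CPM against 146 to 165, Crispld2 33.4 against 60.6 to 76.3 and Lcn2 1.82 against 6.35 to 15.6. Mt1, Mt2 and, narrowly, Sgk1 were lowest there too.

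**Figure D5:**
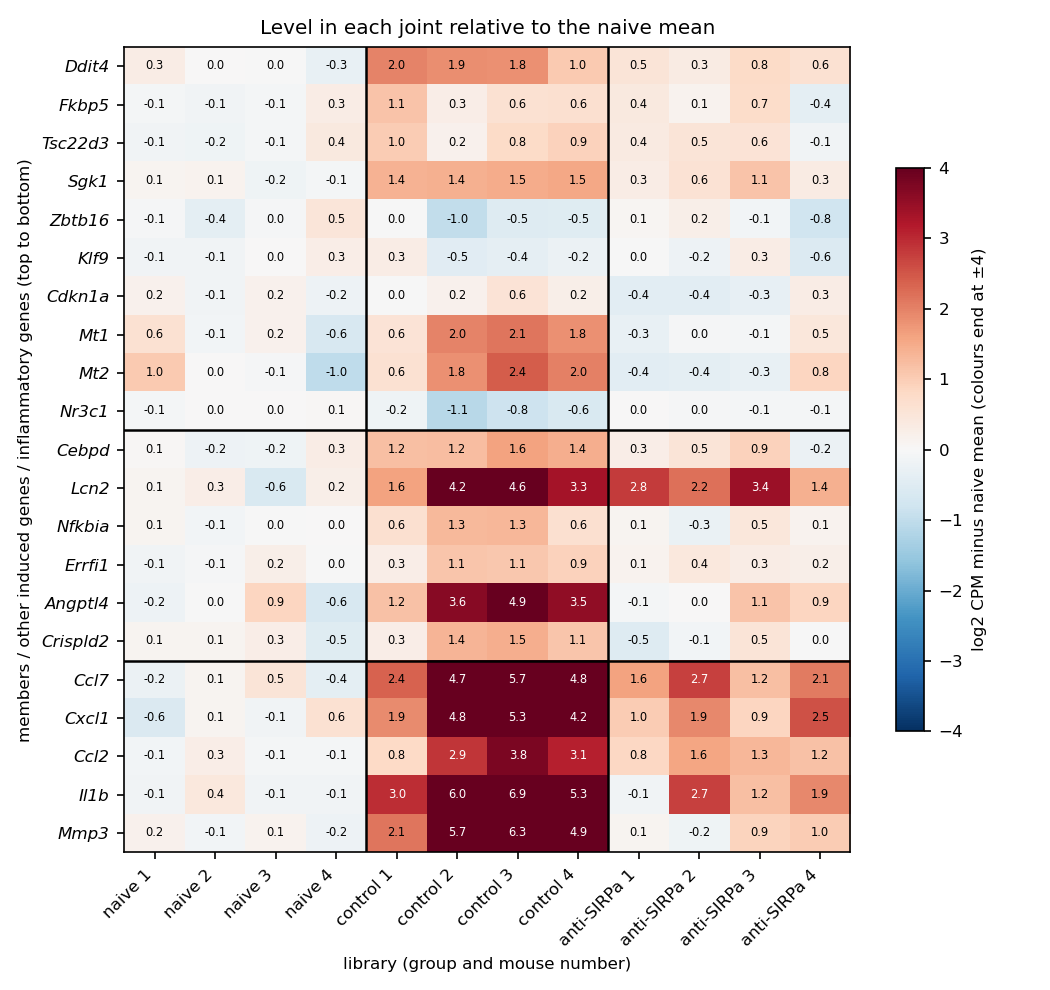
Log2 CPM minus the mean of the naive joints (colour and printed value, colours end at ±4) for the 10 genes, other glucocorticoid-induced genes and inflammatory genes (rows) in 12 joints (columns). In control mouse 1, Ddit4, Fkbp5 and Tsc22d3 are at their highest of the 12 joints. Mt1, Mt2, Errfi1, Crispld2, Angptl4, Lcn2 and the inflammatory genes are lower in it than in control mice 2 to 4.

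Ddit4 acts on mTORC1, the kinase complex that drives protein synthesis. Of 25 genes of this pathway, 2 rose and 1 fell in control-antibody against naive joints (10.3% called over all genes), with a median of -0.03. Txnip, a thioredoxin-binding protein that limits glucose uptake, fell from 401 ± 47 to 200 ± 41 CPM (edgeR adjusted p = 0.00602). Eif4ebp1, the translation repressor that mTORC1 phosphorylates, rose from 22 ± 1.74 to 37 ± 5.36 CPM (0.75 ± 0.14, 0.00999), and the kinase Akt2 rose from 62.5 ± 2.11 to 84.5 ± 9.27 CPM (0.44 ± 0.13, 0.0434). With anti-SIRPa, Txnip rose to 358 ± 36.8 CPM (0.84 ± 0.16, adjusted p = 0.0249) and Eif4ebp1 fell to 22.6 ± 3.44 CPM (-0.72 ± 0.14, 0.0265), and these were the 2 calls among the 25 (3.29% over all genes).

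Ddit4 and Cdkn1a have other known inputs. Of 18 hypoxia genes, Hif1a rose (83.1 ± 19.7 to 170 ± 61.3 CPM, edgeR adjusted p = 0.0401) and Epas1 fell (261 ± 13.2 to 158 ± 29.8 CPM, 0.0102) against naive. These genes encode the oxygen-regulated subunits of hypoxia-inducible factors. The median of the list was -0.38 against 0.03 over all genes. At an unadjusted p under 0.05 there were 13 of the 18 against 4708 of 16674 over all genes, and DESeq2 called 7. Epas1 rose with anti-SIRPa (235 ± 14 CPM, 0.04), the 1 call of the list there. Of all genes 10.3% were called against naive and 3.29% for anti-SIRPa against control antibody. Of 17 integrated stress response genes, 3 rose and 2 fell against naive, where 10.3% of all genes were called, and the median of the list was 0.05. Cebpb, a transcription factor also induced by inflammation, rose from 130 ± 14.2 to 260 ± 45.3 CPM (0.00535) and Chac1, a glutathione-degrading enzyme, from 8.01 ± 2.02 to 22.8 ± 3.81 CPM (0.035). Ddit3, the transcription factor CHOP, fell from 21.4 ± 2.39 to 12.5 ± 2.5 CPM (0.0137) and Ppp1r15a, the phosphatase subunit that ends the response, from 51.2 ± 13.4 to 28.1 ± 2.84 CPM (0.0103). With anti-SIRPa, Cebpb fell to 154 ± 24.6 CPM (0.0289) and Ddit3 rose to 20.1 ± 2.71 CPM (0.0391), the 2 calls of the list there (3.29% over all genes).

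Of 22 p53 target genes, 4 rose and 0 fell against naive (5.87% higher and 4.45% lower over all genes), with a median of 0.04. Gadd45a, a growth arrest gene that is also a muscle atrophy gene, rose from 20.1 ± 1.89 to 86.1 ± 43.1 CPM (edgeR adjusted p = 0.0062). It fell to 21.1 ± 5.67 CPM with anti-SIRPa (0.0158), the 1 call of the list there (3.29% over all genes). Bax, a promoter of apoptosis, rose from 5.02 ± 0.503 to 10.8 ± 2.86 CPM (0.0106), Btg2, an antiproliferative gene, from 20.3 ± 5.35 to 48.1 ± 11.2 CPM (0.0234), and Trp53 itself from 9.47 ± 0.442 to 16 ± 3.25 CPM (0.035). Of 18 muscle atrophy genes, Gadd45a, Eif4ebp1 and Fbxo31, a ubiquitin ligase subunit (110 ± 14.3 to 183 ± 35.7 CPM, 0.0215), rose against naive and 0 fell, with a median of 0.02. Gadd45a and Eif4ebp1 fell with anti-SIRPa and 0 of this list rose, against 1.70% lower and 1.59% higher over all genes.

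Of 15 genes of metal and oxidant defence other than Mt1 and Mt2, 3 rose and 1 fell against naive (5.87% and 4.45% over all genes), with a median of 0.11. Slc39a14, a zinc importer induced by interleukin 6, rose from 15.9 ± 1.82 to 110 ± 69.4 CPM (edgeR adjusted p = 0.0103). It fell to 17.3 ± 2.64 CPM with anti-SIRPa (0.0265), the 1 call of the list there (3.29% over all genes). In control mouse 1 it measured 25.5 CPM against 98.3 to 193 in the other 3, as with Mt1. The zinc transporter Slc39a1 rose from 35.8 ± 1.31 to 55.5 ± 14.1 CPM (0.0328) and the iron storage gene Fth1 from 748 ± 66.6 to 1080 ± 202 CPM (0.0452), while Gclc, of glutathione synthesis, fell from 30.3 ± 4.94 to 18.3 ± 2.17 CPM (0.0169).

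Of 18 circadian clock genes, which glucocorticoids help to set, 5 fell and 1 rose in control-antibody against naive joints (4.45% and 5.87% over all genes), with a median of -0.26. Time of day at tissue collection entered none of the fits, and its part in these values was not tested. Arntl (BMAL1), the activator of the clock, fell from 25 ± 5.19 to 11.2 ± 2.41 CPM (edgeR adjusted p = 0.00808), and its repressor Nr1d1 from 203 ± 12.9 to 100 ± 36.7 CPM (0.0104). The repressors Cry2 and Cry1 fell from 141 ± 16.6 to 80.5 ± 25.7 CPM (0.0193) and from 18.2 ± 2.6 to 12.2 ± 1.18 CPM (0.023). With anti-SIRPa, Nr1d1 rose to 185 ± 14.4 CPM (0.0338) and Arntl to 19.2 ± 3.62 CPM (0.0489), the 2 calls of the list there (1.59% higher over all genes). 
In anti-SIRPa against naive joints, edgeR called 0 genes of any of these lists, and DESeq2 called 1, among the other glucocorticoid-induced genes. At an unadjusted p under 0.05 each list had between 0 and 5. The gene with the smallest p in each list did not pass. Lcn2 (0.519 ± 0.162 CPM in naive and 3.87 ± 2.23 in anti-SIRPa joints, adjusted p = 0.687) and Ccl7 (0.467 ± 0.176 and 2.26 ± 1.13, adjusted p = 1) had no overlap between the 2 groups and higher values with anti-SIRPa. For the others the adjusted p was also 1, with log2 differences of -0.22 ± 0.11 for the chaperone Hspa8, -0.25 ± 0.11 for the autophagy kinase Ulk1, 0.27 ± 0.13 for the transcription factor Bhlhe40 and -0.42 ± 0.16 for Ppp1r15a. Btg2 was at 0.80 ± 0.29, Gclc at -0.56 ± 0.16, the ubiquitin ligase subunit Fbxo30 at -0.25 ± 0.12 and the clock activator Npas2 at -0.77 ± 0.27. Hspa8 and Npas2 did not overlap between the groups and were lower with anti-SIRPa.

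These calls depended on single mice to different degrees. Of the 30 calls named from the lists for control antibody against naive, 19 held with any 1 of the 12 mice left out. The others, Akt2, Hif1a, Chac1, Btg2, Trp53, Slc39a1, Gclc, Fth1, Fbxo31, Cry1 and Cry2, lost the call without at least 1 mouse, with adjusted p up to 0.147. Fth1 kept it in 1 of 12 and Akt2 and Hif1a in 3. Of the 17 calls that the naming rule took for anti-SIRPa against control antibody, which leaves out Dusp1, none held throughout. All 17 were lost without anti-SIRPa mouse 1 or 2 or without control mouse 3 or 4 (adjusted p from 0.0507 to 0.142), and 15 without control mouse 2. None was lost without control mouse 1 or without naive mouse 4. Naive mice are in the fit but not in this comparison. Without naive mouse 1, 2 or 3, the calls lost were 10, 12 and 8. Without anti-SIRPa mouse 3 or 4 they were 10 and 4. The direction was the same in all of these fits. Il1b and Cxcl1 are among the 19 and the 17, and nothing is read from their calls, given the filter on low counts.

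With the muscle marker level as a covariate, 9 of the 30 calls against naive were kept, those of Cebpd, Cebpb, Eif4ebp1, Txnip, Epas1, Fbxo31, Nr1d1, Cxcl1 and Ccl7, and 21 were lost. All 30 had the same sign and 25 lay nearer 0. Nothing is read from the kept call of Cxcl1, given the filter on low counts. The log2 difference was 3.03 for Lcn2, 1.73 for Slc39a14, 0.25 for Hif1a, 3.36 for Cxcl1 and 3.86 for Ccl7. These 5, Ccl2 and Il1b moved by over 1.5-fold. Of the 17 calls for anti-SIRPa against control antibody, that of Txnip was kept (0.62, edgeR adjusted p = 0.0307) and 16 were lost, again with the same sign in all 17. The covariate moved 6 of these by over 1.5-fold, Mmp3, Il1b, Ccl7 and Cxcl1 as given above, Angptl4 to -1.92 and Slc39a14 to -1.74. Dusp1 was at 0.59 (adjusted p = 0.193).

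Ddit4 was set against the 12027 other named genes with a mean log2 CPM of at least 1. Its 12 library levels were most like those of Lztr1, Haus4, Ap3b1 and Nek4 (Pearson r of log2 CPM 0.91 each), Zbtb12, Slc25a25, Polg, Sgk1 and Rfc1 (0.90 each) and Mcm7 (0.89). Sgk1 was thus rank 8 of 12027. The genes most unlike it were St3gal5 (-0.96), Tspan15 and Zfpm1 (-0.95 each). Of the other genes described here, r with Ddit4 was 0.76 for Mt1, 0.72 for Mt2, 0.65 for Fkbp5, 0.59 for Tsc22d3 and 0.43 for Cdkn1a, and -0.23 for Klf9, -0.55 for Zbtb16 and -0.76 for Nr3c1. After group means were subtracted, r with Ddit4 lay between -0.34 (Tsc22d3) and 0.18 (Cdkn1a) for all 9, and the most alike genes were Pmf1 and Sft2d3 (0.90 each), Irf2bp2 (0.86), Gpsm1 (0.84) and Cdc37 (0.83). These values describe 12 libraries in 3 groups and carry no test.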

How the data were processed

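Total RNA from joints of 12 mice was made into stranded total RNA libraries, per the labels' protocols. The deposited values are raw read counts per gene, per the file headers, on GRCm38 per the submitters' processing notes, with aligner, counting tool and strand setting not given in the sources used here. The table held 52636 identifiers, 52403 with a symbol and 15225 with no count, and the 12 single-library files equalled its columns. A 3-count floor corresponds to 0.17 to 0.394 CPM, and this covers counting error only. No replicate pair agreed within counting noise, since chi-square per gene was at least 8.26.

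Differences were tested on the counts with edgeR 4.0.16 in R 4.3.3 (quasi-likelihood test, filterByExpr by group, TMM scaling, robust estimation, all 12 libraries in 1 fit). P-values were adjusted by Benjamini-Hochberg over 16674 genes at 0.05. All 10 genes passed the filter. CPM values are TMM-scaled, log2 CPM used a prior count of 2, and SEs are those of the fit. DESeq2 1.42.0, limma-voom 3.58.1, other scalings and filters, a replicate block, the muscle covariate and leaving out mice were the alternatives. The pipeline was tested on simulated data. Each library is 1 animal, but nothing states how cages or days were shared. The genes and all gene lists were chosen with earlier results of these data known. From each list, the text names up to 4 genes per comparison that passed the test with the smallest p, or the 1 with the smallest p where none passed, and the genes most like Ddit4 by r.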

Additional observations from a re-analysis of the deposited data

Results flagged for a closer look

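In 4 of 30 sets of 4 mice (10 genes in 3 groups), 1 joint lay far from the other 3 by Dixon's criterion, which chance alone gives in about 1 of 20 sets. In naive mouse 4, Fkbp5 measured 59.9 CPM against 44 to 46 in the other 3, and Tsc22d3 measured 125 CPM against 85.3 to 91.1. This joint had the highest muscle marker level of the 12, and 11.4 CPM of epidermis markers against 3860 to 14800 in the other naive joints. In anti-SIRPa mouse 4, Cdkn1a measured 41.3 CPM against 24.7 to 26.6, and Mt2 measured 22.6 CPM against 9.4 to 10. This joint had the lowest muscle marker level of its group, and 18900 CPM of epidermis markers against 7.53 to 403 in the other 3. The part of muscle or epidermis in these values was not tested.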

How the results depend on the processing

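The number of the 10 genes called varied with the fit. For arthritis with control antibody against naive it was 5, but 3 in a fit of only the 2 groups compared, 2 with a replicate block, 1 (Ddit4) with control mice 2 and 4 left out, 2 with naive mouse 4 and anti-SIRPa mouse 2 left out, and 2 to 7 with 1 mouse left out. For anti-SIRPa against control antibody it was 3, but 5 by DESeq2, 1 (Ddit4) with a replicate block, 0 in the fit of 2 groups, 0 with either pair of mice left out, and 0 to 5 with 1 mouse left out. It was 0 for anti-SIRPa against naive in all 25 alternatives. Deviations of same-numbered mice from their group means had r from -0.80 to 0.21. This gives no sign that the numbers pair the mice, but it cannot exclude a shared cage or day.

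Over all genes, arthritis against naive called 1721 genes, and 2905 by DESeq2, 735 with the replicate block, 435 in the fit of 2 groups, 167 with the muscle covariate, 166 and 1 with the pairs left out, and 412 to 4694 with 1 mouse left out. Anti-SIRPa against control antibody called 548, and 1892 by DESeq2, 345 by limma-voom, 78 with the block, 67 with the muscle covariate and 0 to 3976 with 1 mouse left out. It called 0 by edgeR in the fit of 2 groups (3284 genes at an unadjusted p under 0.05), with controls 2 and 4 left out (2247) and with naive mouse 4 and anti-SIRPa mouse 2 left out (3127). The 3976 is without control mouse 1.

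Some differences changed sign. For anti-SIRPa against control antibody these were Zbtb16 with the muscle covariate (-0.10) and Klf9 with the muscle covariate (-0.26), with controls 2 and 4 left out (-0.05) and over the 12 mice left out (-0.07 to 0.28). For anti-SIRPa against naive they were Klf9 with naive mouse 4 and anti-SIRPa mouse 2 left out (0.07), Mt1 by limma-voom (0.00) and Nr3c1 with the muscle covariate (0.02). With 1 mouse left out they ranged from -0.26 to 0.08 for Zbtb16, -0.25 to 0.04 for Klf9, -0.20 to 0.21 for Mt1, -0.55 to 0.33 for Mt2 and -0.07 to 0.00 for Nr3c1. For arthritis against naive, the muscle covariate turned Cdkn1a to -0.09, Zbtb16 to 0.05 and Klf9 to 0.24. The cause of these changes was not tested. Ddit4 against naive stayed at 1.60 to 1.88 in all 25. It was chosen for a stable difference in this contrast. Nothing is therefore read from this range, or from its call there with controls 2 and 4 left out. Other scalings moved the median of all genes by at most 0.03. With 4 mice a group and a biological coefficient of variation of 0.334, small differences are not resolved.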

Other observations

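Within groups, the genes moved in 2 sets that the group means do not show. After group means were subtracted, Fkbp5 and Klf9 (r = 0.97), Tsc22d3 and Zbtb16 (0.90), Fkbp5 and Tsc22d3 (0.85) and Fkbp5 and Zbtb16 (0.81) varied together over the 12 joints. Mt1 and Mt2 (0.94) and Cdkn1a and Mt2 (0.83) formed the other set, and Klf9 and Mt1 ran opposite (-0.80), as did Mt1 and Nr3c1 (-0.76). Ddit4 belonged to neither, with r of 0.08 to Fkbp5 and 0.05 to Mt1. For Sgk1 these were 0.44 and 0.07. The points share a library and its scaling, no test was made, and the muscle marker level given above ran along the same 2 sets. Marker levels of epidermis and other tissues were not set against them.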
